A study of Rattus norvegicus albus with 14 samples.

Results

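The genes described here supply cells with amino acids and load them onto transfer RNA (tRNA). They were 36 genes chosen by name: enzymes that make asparagine, serine, glycine, proline and cysteine, and plasma membrane amino acid transporters. The others were the leucine sensor Sesn2 and 18 tRNA synthetases of the cytosol. Many of the 36 are known targets of ATF4. Of the 36, 35 were matched by symbol among the 32545 genes of the count tables, and Cth was not analysed here. Aldh18a1, which starts proline synthesis, was listed at 0 counts in every library, so 34 genes entered the tests among 15655 genes that passed the filter on low counts.

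A tRNA synthetase joins an amino acid to its matching tRNA, and the ribosome can use only a loaded tRNA. When an amino acid runs short, unloaded tRNA activates the kinase GCN2, which phosphorylates the translation factor eIF2α. Bulk translation then slows while the mRNA of ATF4 is translated more, and ATF4 switches on genes for amino acid synthesis, uptake and tRNA loading. Other eIF2α kinases, which respond to stress of the endoplasmic reticulum, to viral RNA or to lack of haem, feed into the same factor, and the whole is called the integrated stress response.

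The cells were neonatal rat ventricular myocytes, that is, muscle cells of the heart isolated at an age of 1 day from Sprague-Dawley rats, pooled, and treated in medium without serum before RNA sequencing. All groups carried 1% DMSO as the vehicle. One group received DMSO alone for 0.5 h and had 1 library, and the other 3 groups received 10 µmol/L rosiglitazone in DMSO for 0.5, 24 or 48 h and had 2 libraries each. Rosiglitazone is an agonist of the nuclear receptor PPARγ. Vehicle at 24 or 48 h was not analysed here, so exposure to the drug and time in culture cannot be told apart in any comparison between times. Nothing in the labels ties the libraries to separate dishes or litters, and p-values therefore reflect only how far libraries of a group lie apart, which may be technical.

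Each library was deposited as 2 splits that were counted as 1 sample, because they differed by no more than sampling noise (0.963 to 1.02 in chi-square per degree of freedom). Libraries held 10886559 to 28074620 counts. Replicate 2 of 48 h was the lowest, and every other library held 24341710 or more. In chi-square per degree of freedom the libraries within a group lay at 49.1 (rosiglitazone at 0.5 h), 278 (24 h) and 118 (48 h), so the 24 h pair was furthest apart. Preplating had left a stated share of over 98% myocytes. All 8 cardiomyocyte markers that were matched (Myh6, Myh7, Tnnt2, Tnni3, Actn2, Ryr2, Myl2, Tnnc1) had counts in every library. At 0.5 h their summed level was 5479 counts per 1e6 counts (CPM) with DMSO and 9254 and 8992 CPM with rosiglitazone. It was 8249 and 2062 CPM at 24 h and 218 and 1270 CPM at 48 h, for replicates 1 and 2 in that order. The sum hides opposite directions in replicate 1 of 24 h. There Myh6, Myh7, Actn2 and Ryr2 were below all 3 libraries of 0.5 h, at 385, 716, 289.7 and 76.0 CPM, where the lowest 0.5 h values were 963, 1307, 678 and 256 CPM. Tnnt2, Tnni3, Myl2 and Tnnc1 were above all 3, at 3215, 945, 1013.5 and 1608 CPM, where the highest were 2198, 389.9, 543 and 960.2 CPM. In the other 3 late libraries all 8 were below. In bulk RNA, fewer cells of a type and less RNA per cell cannot be told apart. Markers of other cell types were detected too, and 7 fibroblast markers summed to 31635 to 32919 CPM at 0.5 h. The stated share of myocytes was not tested, and levels of the members cannot be assigned to 1 cell type.

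In the 24 and 48 h libraries, called late libraries and set against the 3 libraries of 0.5 h, 3 member genes rose: Slc3a2, the heavy chain shared by several amino acid exchangers, Shmt2, the mitochondrial enzyme that splits serine into glycine and a carbon unit, and Yars, the tyrosine tRNA synthetase. None fell. The other 31 tested members did not pass the threshold of an adjusted p under 0.05 (edgeR's quasi-likelihood test, adjusted over all 15655 genes). Of all genes tested, 11.4% passed, in either direction. The log2 fold change was above 0 for 31 of the 34 members, with a median of 0.56, beside -0.07 for all genes tested. At an unadjusted p under 0.05, 15 members were higher and 0 lower, where 12.1% of all genes were higher.

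Read library by library, 18 of the 34 members had all 4 late libraries above all 3 libraries of 0.5 h, and 0 had all 4 below. The same held for 14.2% of all genes tested on the high side and 19.5% on the low side. By role, the count on the high side was 4 of 6 for the asparagine, serine and folate enzymes, 2 of 7 for the transporters and 12 of 18 for the synthetases. Pycr1, Cbs and Sesn2 overlapped between times.

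**Figure D1:**
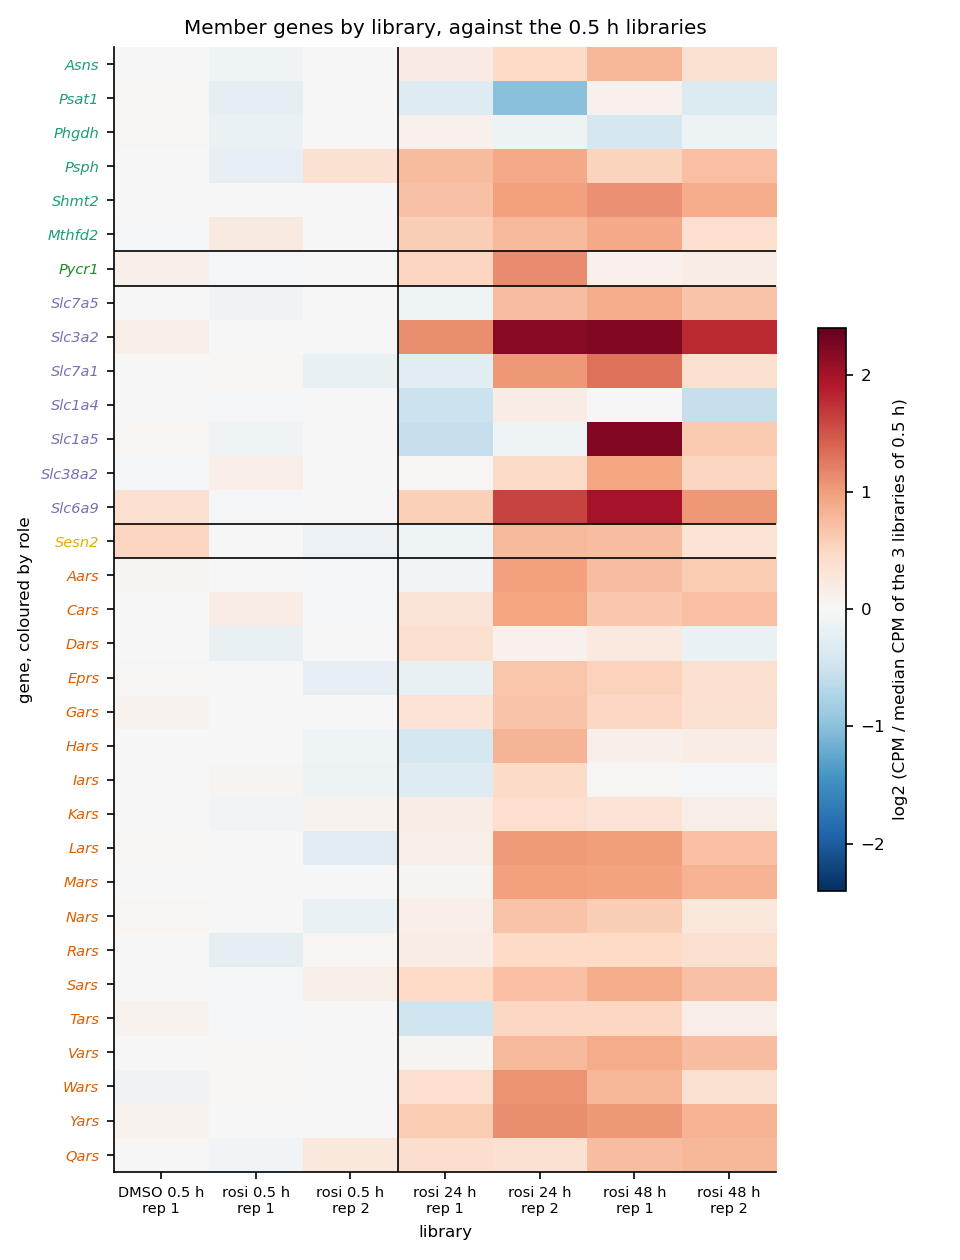
Each row is a member gene and each column a library; the colour gives log2 of the gene's CPM over its median CPM in the 3 libraries of 0.5 h, so red is higher and blue lower (Cbs, at under 1 CPM in every library, and Aldh18a1, at 0, are not drawn). Most rows are red in replicate 2 of 24 h and in both 48 h libraries. Replicate 1 of 24 h is paler, with 9 members below their 0.5 h range, among them Slc1a5, Tars, Hars and Iars. Psat1, Phgdh and Slc1a4 also have blue fields among the late libraries.

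Slc3a2 (ENSRNOG00000018487) encodes CD98 heavy chain, which carries light chains such as Slc7a5 to the plasma membrane. It stood at 404 CPM in the DMSO library, 365 and 367 CPM with rosiglitazone at 0.5 h, 799 and 1663 CPM at 24 h and 1704 and 1265 CPM at 48 h. All 4 late libraries were above all 3 of 0.5 h, and replicate 1 of 24 h was the lowest of them. The late against 0.5 h difference was 3.58-fold (log2 1.84, SE 0.32, adjusted p 0.014). Slc3a2 was also the only member to pass in a comparison of 2 single groups, 48 h against 0.5 h of rosiglitazone (log2 2.02, SE 0.41, adjusted p 0.033).

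The Slc3a2 calls depended on the libraries in the fit. Without replicate 1 or replicate 2 of rosiglitazone at 0.5 h the late adjusted p was 0.102 and 0.0845, and without replicate 1 of 48 h it was 0.0565, while the log2 difference stayed between 1.70 and 1.84 in those fits. The 48 h against 0.5 h call was lost without either replicate of 0.5 h (adjusted p 0.236 and 0.196) or of 48 h (0.168 and 0.077), and without replicate 2 of 48 h Slc1a5 passed in its place (log2 2.28, adjusted p 0.038).

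Slc7a5, the LAT1 light chain that takes up leucine and other large neutral amino acids together with Slc3a2, read 349 CPM with DMSO, 331 and 349 CPM at 0.5 h, 326 and 584 CPM at 24 h, and 649 and 562 CPM at 48 h. Replicate 1 of 24 h was just under the 0.5 h values, and the other 3 late libraries were above them. The late log2 difference was 0.61 (SE 0.26, adjusted p 0.17). The glycine transporter Slc6a9 was at 71.4 CPM with DMSO, 54.0 and 54.8 CPM at 0.5 h, 81.9 and 168 CPM at 24 h and 218 and 113 CPM at 48 h. Its late libraries did not overlap the earlier ones, and the log2 difference of 1.27 (SE 0.34) had an adjusted p of 0.053.

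Slc1a5, the ASCT2 exchanger of glutamine, serine and alanine, showed a large gap between late libraries. Its values were 125 CPM with DMSO, 113 and 121 CPM at 0.5 h, 82.4 and 113 CPM at 24 h, and 568 and 189 CPM at 48 h. Both 48 h libraries were above every other library, although replicate 1 of 48 h was 3.01 times replicate 2. The 48 h against 24 h log2 difference was 1.96 (SE 0.50, unadjusted p 0.0049, adjusted p 0.32). The authors' deposited table gives Slc1a5 a log2 fold change of 1.69 for that comparison, with an adjusted p of 7.8e-05.

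Slc7a1, the main importer of arginine and lysine, was at 113 CPM with DMSO, 115 and 100 CPM at 0.5 h, 94.9 and 231 CPM at 24 h and 279 and 146 CPM at 48 h. Slc38a2, the SNAT2 transporter of small neutral amino acids whose mRNA is a classic marker of amino acid shortage, was at 661 CPM, then 755 and 680, 695 and 935, and 1318 and 977 CPM in the same order. Both overlapped between times through replicate 1 of 24 h. Slc1a4, a carrier of alanine, serine and cysteine, was at 171 CPM with DMSO, 165 and 173 CPM at 0.5 h, 120 and 194 CPM at 24 h and 170 and 116 CPM at 48 h. It overlapped in both directions, and its late log2 difference was -0.18 (SE 0.25, adjusted p 0.69).

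**Figure D2:**
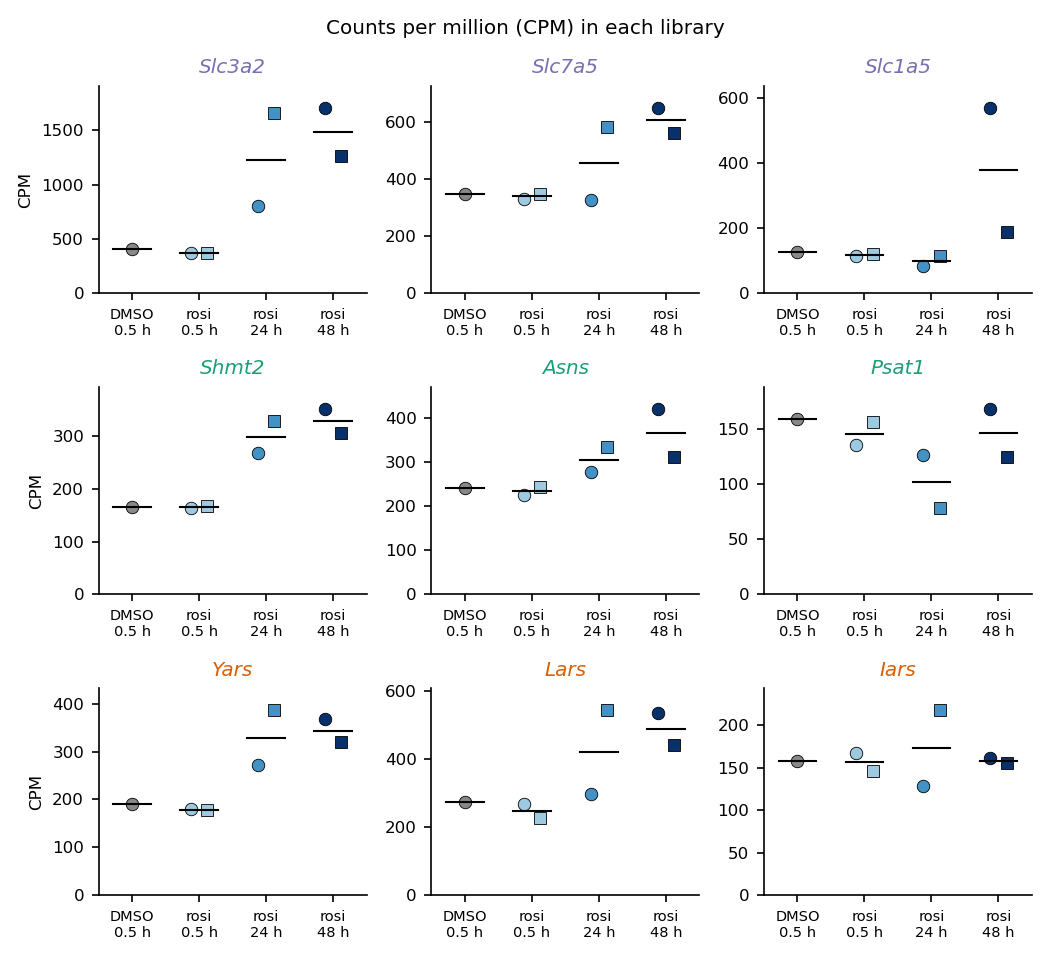
CPM of 9 member genes (3 transporters in the top row, 3 enzymes in the middle, 3 synthetases at the bottom), with circles for replicate 1, squares for replicate 2 and a bar at the mean of each group. The values of Slc3a2, Shmt2, Yars, Asns and Lars at 24 and 48 h lie above all of those at 0.5 h, whereas those of Slc7a5, Slc1a5, Psat1 and Iars overlap.

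Among the enzymes, Shmt2 (ENSRNOG00000008106) was tight at 0.5 h, with 165 CPM for DMSO and 164 and 167 CPM for rosiglitazone. It was at 269 and 329 CPM at 24 h and at 352 and 306 CPM at 48 h. Every late library was above every 0.5 h library, and the difference was 1.89-fold (log2 0.92, SE 0.20, adjusted p 0.028). This call was lost when any 1 library other than those of 24 h was left out, with adjusted p of 0.0546 to 0.225 and log2 differences of 0.85 to 0.97.

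Mthfd2, which oxidises the folate-bound carbon unit that Shmt2 releases, was at 96.1 CPM with DMSO, 113 and 97.5 CPM at 0.5 h, 146 and 168 CPM at 24 h and 184 and 129 CPM at 48 h. Psph, the last enzyme of serine synthesis, was at 40.0 CPM, then 34.9 and 51.4, 67.8 and 74.8, and 58.2 and 66.0 CPM. Asns, which makes asparagine from aspartate and glutamine, was at 241 CPM, then 225 and 243, 277 and 334, and 420 and 311 CPM. The late libraries of all 3 genes were above those of 0.5 h without overlap, yet none passed the test. Their late log2 differences were 0.62 (SE 0.21, adjusted p 0.11), 0.66 (SE 0.23, adjusted p 0.11) and 0.50 (SE 0.21, adjusted p 0.17).

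The enzymes upstream of Psph had other values. Phgdh, which commits a glycolytic intermediate to serine synthesis, was at 256 CPM with DMSO, 226 and 252 CPM at 0.5 h, 270 and 232 CPM at 24 h and 190 and 233 CPM at 48 h. Psat1, the next enzyme, was at 159 CPM, then 135 and 156, 126 and 77.7, and 168 and 124 CPM. Both overlapped between times, and their late log2 differences were -0.09 (SE 0.20, adjusted p 0.82) and -0.30 (SE 0.24, adjusted p 0.46). The 3 enzymes of serine synthesis thus lay on different sides of 0, and differences between them were not tested.

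Pycr1, the last step of proline synthesis, was at 27.8 CPM with DMSO, 24.8 and 25.5 CPM at 0.5 h, 36.4 and 55.8 CPM at 24 h, and 27.5 and 28.9 CPM at 48 h. The 24 h libraries were the high ones, and replicate 1 of 48 h lay within the 0.5 h range. Its log2 difference was 0.87 (SE 0.32, adjusted p 0.26) for 24 h against 0.5 h and -0.71 (SE 0.32, adjusted p 0.64) for 48 h against 24 h. Cbs, which starts cysteine synthesis from homocysteine, was at 0.962 CPM or less everywhere and at 0 in 2 late libraries, so no difference was detectable at this depth. Sesn2, which holds back mTORC1 when leucine is scarce, was at 167 CPM with DMSO, 117 and 107 CPM at 0.5 h, 110 and 202 CPM at 24 h and 196 and 147 CPM at 48 h. The DMSO library lay among the late values, and the late log2 difference was 0.35 (SE 0.26, adjusted p 0.42).

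All 18 cytosolic synthetases among the members had a late log2 difference above 0, from 0.07 for Iars to 0.88 for Yars, with a median of 0.50. Yars was the only one to pass the test. At an unadjusted p under 0.05, 8 were higher (Yars, Sars, Lars, Wars, Mars, Cars, Vars, Qars), where 12.1% of all genes tested were. The differences stayed above 0 for all 18 with DESeq2 size factors, and without replicate 2 of 24 h they did so for 15.

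Yars (ENSRNOG00000007213) was at 191 CPM with DMSO, 179 and 177 CPM at 0.5 h, 272 and 387 CPM at 24 h and 368 and 320 CPM at 48 h. No late library overlapped those of 0.5 h, and the difference was 1.85-fold (log2 0.88, SE 0.22, adjusted p 0.041). The call was lost when any 1 library other than those of 24 h was left out, with adjusted p of 0.0685 to 0.262.

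The serine enzyme Sars was at 306 CPM with DMSO, 300 and 337 CPM at 0.5 h, 428 and 505 CPM at 24 h and 566 and 501 CPM at 48 h. Lars, for leucine, was at 273 CPM, then 269 and 226, 297 and 544, and 537 and 441 CPM. Neither overlapped between times, but replicate 1 of 24 h stood close to the 0.5 h values for Lars and apart from them for Sars. Their late log2 differences were 0.67 (SE 0.20, adjusted p 0.076) and 0.83 (SE 0.27, adjusted p 0.092).

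Wars, the tryptophan enzyme, which interferon also induces, was at 135 CPM with DMSO, 149 and 144 CPM at 0.5 h, 191 and 306 CPM at 24 h and 249 and 186 CPM at 48 h. Mars, for methionine, was at 191 CPM, then 192 and 189, 200.5 and 378, and 374 and 340.0 CPM. Cars, for cysteine, was at 118 CPM, then 133 and 115, 146 and 229.5, and 185 and 194 CPM. All 3 were without overlap, with late log2 differences of 0.70 (SE 0.24), 0.75 (SE 0.26) and 0.63 (SE 0.23) and adjusted p of 0.11, 0.11 and 0.12.

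The 3 synthetases with the largest p were those for isoleucine, threonine and histidine. Iars was at 159 CPM with DMSO, 167 and 146 CPM at 0.5 h, 128 and 218 CPM at 24 h and 162 and 155 CPM at 48 h. Tars was at 158 CPM, then 146 and 149, 107 and 209.8, and 210.1 and 166 CPM, and Hars at 126 CPM, then 126 and 117, 94.1 and 223, and 138 and 143 CPM. In each case replicate 1 of 24 h was the lowest of all 7 libraries and replicate 2 of 24 h was above the 0.5 h range. Late log2 differences were 0.07 (SE 0.24), 0.20 (SE 0.27) and 0.28 (SE 0.30), with adjusted p of 0.89, 0.69 and 0.60.

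The other 9 synthetases had late log2 differences between 0.21 for Dars (aspartate) and 0.64 for Vars (valine). Of these, Gars, Kars, Nars, Rars, Vars and Qars did not overlap between times, and Aars, Dars and Eprs did. Gars and Kars also encode the mitochondrial forms of their enzymes, and Eprs charges both glutamate and proline.

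**Figure D3:**
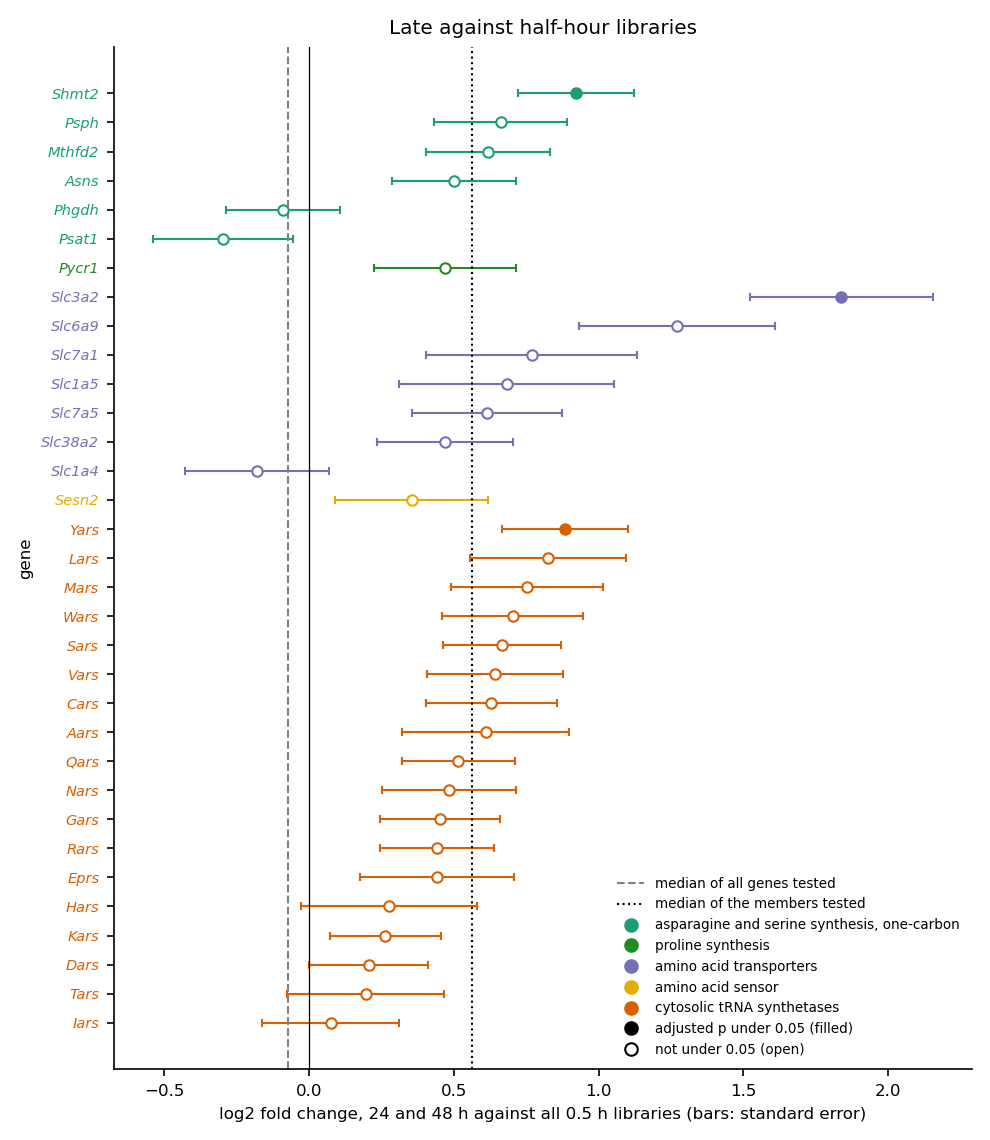
Late against 0.5 h log2 fold change of 33 members with its standard error, coloured by role, filled where the adjusted p was under 0.05; Cbs is not drawn because its standard error is 2.13. Slc3a2, Shmt2 and Yars are filled, all 18 synthetases lie above 0, and Psat1, Phgdh and Slc1a4 lie under it; the dashed line is the median of all genes tested at -0.07 and the dotted line that of the members at 0.56.

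At 0.5 h, no member passed the test of rosiglitazone against DMSO. The log2 difference was under 0 for 23 of 34 members, with a median of -0.06 beside 0.01 for all genes tested. It ran from -0.58 for Sesn2 to 0.23 for Cbs, which had only 4 to 10 counts in each library of 0.5 h. The edgeR test called 0 members and 0% of all genes. At an unadjusted p under 0.05 it marked 0 members, beside 0.109% of all genes higher and 0.498% lower, and DESeq2 called 0 members and 0.0128% of all genes. The DMSO group had 1 library, which is assumed to vary like the other groups. That library also differed in cell markers, with a macrophage marker sum of 589 CPM beside 181 and 227 CPM with rosiglitazone at 0.5 h. The authors' deposited table has 2 of 34 members under an adjusted p of 0.05 (Sesn2 at log2 -0.56 and Slc6a9 at -0.38), beside 11.0% of all genes in that table.

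Over the first day, 31 of 34 members were higher at 24 h than at 0.5 h of rosiglitazone, with a median log2 difference of 0.50 beside -0.03 for all genes. Without replicate 2 of 24 h, 22 members and 13 of the 18 synthetases were higher and 12 members lower, with a median of 0.22. Without replicate 1 of 24 h 30 were higher, with a median of 0.76. None passed the test, and the smallest adjusted p among them was 0.11 (Slc3a2); 0.0958% of all genes passed. At an unadjusted p under 0.05, 7 members were higher (Slc3a2, Shmt2, Yars, Slc6a9, Pycr1, Psph, Wars), where 6.55% of all genes were. DESeq2 called 2 members, Slc3a2 and Shmt2, and 7.67% of all genes. Both 24 h libraries were above both of 0.5 h for 20 members and below for 2, where all genes gave 21.2% and 28.9%.

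The authors' deposited table called 20 of 34 members for 24 h against 0.5 h, 19 higher and 1 lower, where 39.0% of its genes were called. Psat1 was the lower one (log2 -0.49, adjusted p 0.045). With each split entered as its own replicate, edgeR called 21 of 34 members and 5629 of 14481 genes here. Splits of a library do not carry the spread between libraries. Why the authors' counts differ from those of the main edgeR test was not tested.

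Between 24 and 48 h the values went in both directions, with no call by edgeR. At 48 h, 22 of 34 members were higher than at 24 h and the median log2 difference was 0.13, beside -0.01 for all genes. That balance rested on which 24 h library was used. Without replicate 1 of 24 h, 10 of 34 members and 3 of 18 synthetases were higher at 48 h, with a median of -0.14, and without replicate 2 of 24 h 29 members were, with a median of 0.33. The edgeR test called 0 members and 0% of all genes, and at an unadjusted p under 0.05 it marked 1 member as higher, Slc1a5, where 2.80% of all genes were higher. DESeq2 called 1 member, Slc1a5 (log2 1.92, adjusted p 0.0088), and 3.14% of all genes. The authors' deposited table called 3 of 34, with Slc1a5 and Qars higher and Pycr1 lower, beside 16.5% of its genes.

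Over the whole course, 32 of 34 members were higher at 48 h than at 0.5 h, with a median log2 difference of 0.59 beside -0.07 for all genes. Slc3a2 alone passed, where 6.59% of all genes did. At an unadjusted p under 0.05, 11 members were higher and 0 lower (9.65% of all genes were higher). Both 48 h libraries were above both of 0.5 h for 28 members and below for 0, where all genes gave 28.3% and 34.4%. DESeq2 called 5 members (16.1% of all genes), and in the late comparison it called 6 (21.3% of all genes).

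The late libraries were not alike in these genes. Against the 0.5 h range, 22 of 34 members were above and 9 below in replicate 1 of 24 h, where 35.6% of all genes tested were above and 41.0% below. In replicate 2 of 24 h 30 were above and 3 below, and in the 48 h libraries 29 and 28 were above and 2 were below in each. In those 3 libraries 34.9% to 36.2% of all genes were above and 39.1% to 42.3% below. Replicate 2 of 24 h exceeded replicate 1 for 29 members, with a median log2 difference between the replicates of 0.57. More than 2-fold gaps were seen for Slc7a1, Hars, Aars, Slc3a2 and Slc6a9. At 0.5 h replicate 2 exceeded replicate 1 for 18 of 34, and at 48 h for 7 of 34.

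Without replicate 1 of 24 h, 13 members rose in the late comparison in place of 3, and 23.1% of all genes tested in that fit passed in either direction in place of 11.4%. They included Slc7a5, Slc7a1, Slc6a9, Aars, Cars, Lars, Mars, Sars, Vars and Wars beside Slc3a2, Shmt2 and Yars. In that case 25 of 34 members, and 16 of 18 synthetases, did not overlap between times, where 19.5% of all genes were higher without overlap. Without replicate 2 of 24 h, 4 members rose, 22.2% of all genes passed, and the median log2 difference was 0.36. No member passed without replicate 1 or 2 of rosiglitazone at 0.5 h or replicate 1 of 48 h, where 1.46%, 2.36% and 4.16% of all genes did. Without the DMSO library or replicate 2 of 48 h 1 member passed, beside 6.79% and 6.81% of all genes. Calls over all genes ranged from 225 to 3569 across the same fits.

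Markers of the cells in the culture moved over the same libraries. Summed over the 18 synthetases, the level was 4752 CPM with DMSO, 4635 and 4500.1 CPM at 0.5 h, 5073 and 7802 CPM at 24 h, and 7324 and 6481 CPM at 48 h. The 7 transporters summed to 1893, then 1898 and 1845, 2199 and 3886, and 4907 and 3369 CPM. The cardiomyocyte markers fell for 4 of the 8 genes (all 8 were lower, with a median log2 difference of -2.74), and were lowest in replicate 1 of 48 h, at 218 CPM. Of all genes tested, 11.4% passed in the late comparison, in either direction. Replicate 1 of 24 h, whose synthetase sum was closest to 0.5 h, had a marker sum of 8249 CPM, with 4 of the 8 markers below the 0.5 h range and 4 above it. In that library Slc3a2, Shmt2 and Yars were at 799, 269 and 272 CPM, above their 0.5 h ranges.

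Of the other markers, 5 of 8 macrophage, 5 of 5 endothelial, 4 of 5 smooth muscle and pericyte, 2 of 4 epicardial and 6 of 6 cell division markers fell, and none rose. Over all 15655 genes tested, 1142 fell and 644 rose in that late comparison. The macrophage markers summed to 589 CPM with DMSO, 181 and 227 CPM with rosiglitazone at 0.5 h and 63.0 to 113 CPM in late libraries. All 8 were lower with rosiglitazone than in the 1 DMSO library at 0.5 h, with a median log2 difference of -1.57. Summed levels at 0.5 h and in late libraries were 146 to 178 and 34.3 to 70.0 CPM for endothelial and 2827 to 3507 and 53.0 to 982 CPM for smooth muscle and pericyte markers. They were 225 to 232 and 54.0 to 157 CPM for epicardial and 418 to 648 and 17.8 to 140 CPM for cell division markers. Adgre1, Vwf, Rgs5 and Upk3b were each at 0 in at least 1 late library. The 7 fibroblast markers summed to 31635 to 32919 CPM at 0.5 h and 15293 to 20634 CPM later, with 1 gene called higher and 1 lower. This sum hides opposite directions, with late log2 differences above 0 for 3 of the 7 and under 0 for 4 (median -0.26). Col1a1, with most of the counts at 0.5 h, had 737940 counts with DMSO and 129778 and 113826 counts at 48 h. Dcn had 26762 counts with DMSO and 231611 and 48926 counts at 48 h. These are raw counts for replicates 1 and 2 in that order, not scaled to library size. The libraries held 28000661 counts with DMSO and 27467157 and 10886559 at 48 h, so replicate 2 of 48 h cannot be compared directly with the others. The part of these markers in the differences between the members was not tested.

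**Figure D4:**
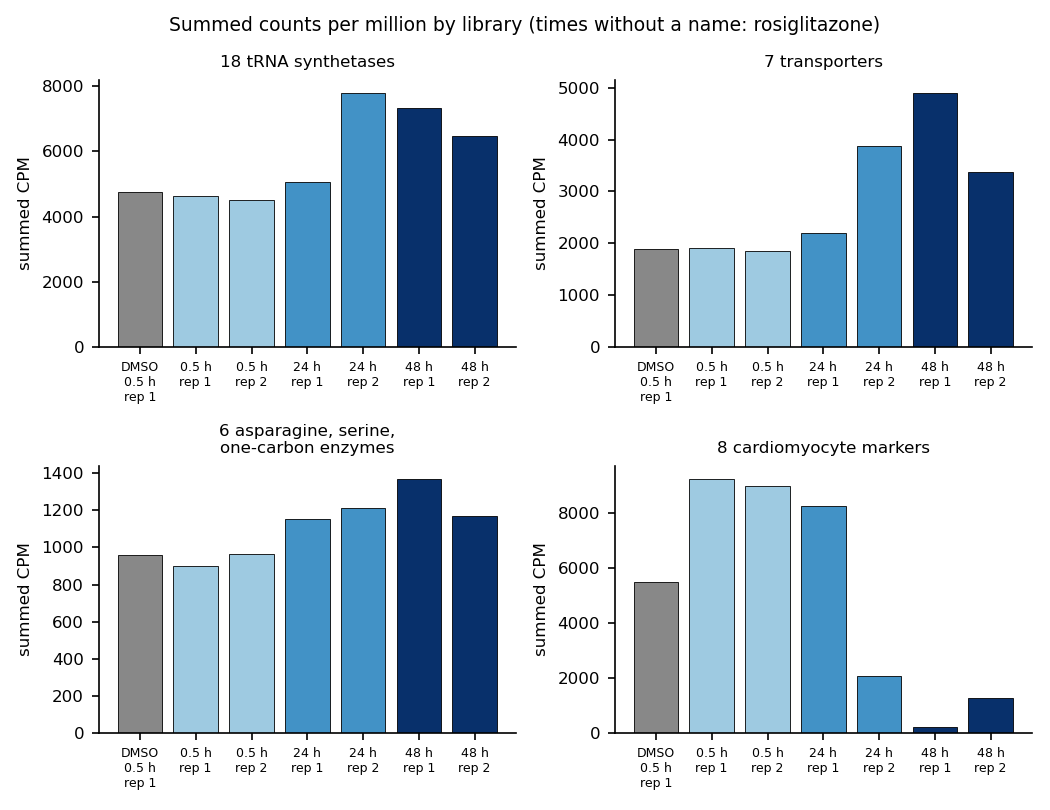
Bars give the summed CPM of each library for the 18 synthetases, the 7 transporters, the 6 asparagine, serine and folate enzymes and the 8 cardiomyocyte markers, each panel from 0 on its own scale. The synthetase sum was 4500.1 to 4752 CPM at 0.5 h and 5073 to 7802 CPM later, and the cardiomyocyte sum ranged from 218 to 9254 CPM.

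Genes placed around the members in the same response were read in the same way. Of the 19 tested factors and other targets of the integrated stress response, 8 rose and 1 fell in the late comparison, with a median log2 difference of 1.08. Over all genes tested 11.4% passed in that comparison, with a median of -0.07, and that share applies to each list that follows. Atf4 itself was at 607 CPM with DMSO, 528 and 515 CPM at 0.5 h, 959 and 1241 CPM at 24 h and 1175 and 1257 CPM at 48 h, without overlap (log2 1.08, SE 0.22, adjusted p 0.023). Since ATF4 is largely controlled through translation, its mRNA does not measure the protein.

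Ddit3, which encodes the stress factor CHOP, was at 41.4 CPM with DMSO, 45.5 and 59.6 CPM at 0.5 h, 133 and 318 CPM at 24 h and 199 and 323 CPM at 48 h (late log2 2.32, SE 0.37, adjusted p 0.012). Trib3, a pseudokinase that CHOP and ATF4 induce, was at 109 CPM, then 75.0 and 84.6, 185 and 367, and 482 and 469.6 CPM (log2 2.03, SE 0.29, adjusted p 0.0085). Neither overlapped between times. Ddit4, an inhibitor of mTORC1, and Cebpb, a partner factor of ATF4, had the smallest p of this list, with log2 differences of 1.94 (SE 0.21, adjusted p 0.0045) and 2.05 (SE 0.23, adjusted p 0.0052). Gdf15, Slc7a11 and Ppp1r15a were the others that rose.

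Slc7a11, the cystine light chain that also pairs with the Slc3a2 heavy chain, ranged widely among late libraries. It was at 96.1 CPM with DMSO, 88.0 and 69.8 CPM at 0.5 h, 111 and 741 CPM at 24 h and 2584 and 448 CPM at 48 h (late log2 3.25, SE 0.82, adjusted p 0.045). Chac1, a glutathione-degrading enzyme that is a well-known target of ATF4, was at 47.3 CPM, then 40.9 and 31.4, 28.2 and 21.8, and 37.7 and 36.7 CPM. Its values overlapped, and the log2 difference was -0.37 (SE 0.23, adjusted p 0.33). Aldh1l2, a mitochondrial folate enzyme, was the gene that fell (log2 -1.32, SE 0.26, adjusted p 0.022).

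Mitochondrial tRNA synthetases, which serve the translation inside that organelle, had 1 call among 16 tested genes, Fars2 (log2 0.96, SE 0.24, adjusted p 0.045), and a median log2 difference of 0.30. A list of synthetase partners and tRNA export also held the cytosolic phenylalanine enzyme, which is not among the members. Its 6 genes, Farsa, Farsb, Aimp1, Aimp2, Eef1e1 and Xpot, had 0 calls and a median of 0.65. For 5 of them the late libraries were all above those of 0.5 h, as for 14.2% of all genes. Farsa and Farsb, the subunits of the phenylalanine enzyme, had log2 differences of 0.39 (SE 0.21, adjusted p 0.28) and 0.70 (SE 0.23, adjusted p 0.099).

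Of 15 tested amino acid transporters listed apart from the members, 3 fell and 0 rose in the late comparison. Their median log2 difference was -0.28, and 11.4% of all genes passed. Slc7a11, a transporter that rose, was placed in the stress response list and is not among these 15. Slc38a4, a sodium-coupled carrier of neutral and cationic amino acids, was at 118 CPM with DMSO, 117 and 113 CPM at 0.5 h, 61.7 and 43.2 CPM at 24 h and 17.0 and 29.3 CPM at 48 h. Every late library was below every 0.5 h library (log2 -1.74, SE 0.26, adjusted p 0.0099). Slc43a1 and Slc7a8, both carriers of large neutral amino acids, fell by 1.46 and 1.58 on the log2 scale (adjusted p 0.027 and 0.029). Of the 18 other amino acid enzymes and of the 8 eIF2α kinases and partners, 0 passed the edgeR test. At an unadjusted p under 0.05, 3 and 1 of them were higher, where 12.1% of all genes tested were. Eif2ak4, the gene of GCN2, had a log2 difference of -0.16 (SE 0.28, adjusted p 0.76).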

How the data were processed

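The authors deposited raw read counts per gene as whole numbers in 3 tables and, per the file headers, a log2 fold change with its p-value and adjusted p-value for 3 comparisons. Named in the submitters' processing notes are HTSeq, DESeq2, cutadapt 1.11, FastQC 0.11.5 and the builds Rnor_6.0 and hg19. The strand setting used in counting and the aligner were not given in the sources used here. Libraries were made with a directional kit, per the labels' protocols. A gene with repeated entries was used once, and the 2 splits of each of 7 libraries were summed.

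Counts were tested with edgeR 4.0.16 (R 4.3.3): TMM scaling, the tool's filter on low counts, robust quasi-likelihood, 4 groups in 1 fit and 3 residual degrees of freedom, with Benjamini-Hochberg adjustment and a threshold of 0.05. The common biological coefficient of variation was 0.514. CPM uses the scaled library size. A count of 0 allows 3 counts, or 0.107 to 0.276 CPM; this covers counting error only. The late comparison weighs 24 and 48 h equally and the 3 libraries of 0.5 h equally. The fit was also run on simulated counts with less spread between libraries than these data have, so that run does not give its error rates here.

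The members and all lists were chosen with earlier results of these data known. Values are given in full for most members outside the synthetases, for the 6 synthetases with the smallest p and the 3 with the largest, and for listed related genes. Alternatives were DESeq2 1.42.0, its size factors, other filters, thresholds, splits, fewer groups, a replicate block and leaving out libraries. No sequence or coordinate is given, since no genome of the build was used here.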

Additional observations from a re-analysis of the deposited data

How the results depend on the processing

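With DESeq2 as the test, the genes called were 2 for rosiglitazone against DMSO at 0.5 h, 1200 for 24 against 0.5 h, 492 for 48 against 24 h, 2526 for 48 against 0.5 h and 3337 for late against all 0.5 h libraries, where edgeR called 0, 15, 0, 1031 and 1786; the members called in the last 4 were 2, 1, 5 and 6 (edgeR 0, 0, 1 and 3). With each split as its own replicate, genes called were 78, 5629, 2890, 6943 and 7936 and members 0, 21, 4, 24 and 25. Without the filter on low counts, genes called were 1 for 0.5 h, 334 for 24 against 0.5 h and 19 for 48 against 24 h, with 1 member for 24 against 0.5 h and 2 for 48 against 0.5 h. With only the groups compared in the fit, genes called were 174 for 0.5 h, 0 for 24 against 0.5 h and 2733 for 48 against 0.5 h, with 9 members in the last. At an adjusted p under 0.1, genes called were 206, 1936 and 3028 and members 0, 5 and 6 for 24 against 0.5 h, 48 against 0.5 h and late. DESeq2 size factors, a mean of at least 5 CPM and a single split of each library moved no such count by over 1.5 times. The cause of these differences was not tested.

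Deviations of same-numbered libraries correlated at -0.083, 0.062 and -0.122 between times. With 1 pair of libraries per time, this cannot tell whether the replicate numbers pair the libraries. With a replicate block, genes called were 1 for 24 against 0.5 h, 407 for 48 against 0.5 h and 785 for late, and members called 0 for 48 against 0.5 h and 1 (Slc3a2) for late.

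Leaving out each library in turn gave, for genes called, 0 to 1008 for 24 against 0.5 h, 0 to 509 for 48 against 24 h, 12 to 2706 for 48 against 0.5 h and 225 to 3569 for late. Members called ranged from 0 to 4, 0 to 0, 0 to 9 and 0 to 13. The median log2 difference of the members ranged from 0.22 to 0.76 for 24 against 0.5 h, from -0.14 to 0.33 for 48 against 24 h, from 0.42 to 0.72 for 48 against 0.5 h and from 0.36 to 0.61 for late. Members above the 0.5 h range in all late libraries numbered 18 to 25 of 34 and those below 0 to 1. Over all genes tested, 15.5% to 19.5% were above and 21.2% to 25.9% below. These counts were added after seeing the data. A lone library left in a group is assumed to vary like the other groups. No single member that passed changed sign under any setting run. The late comparison uses all groups, so fewer groups were not run for it, and rosiglitazone against DMSO cannot be computed without the only DMSO library.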

Other observations

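The growth kinase complex mTORC1 reads the amino acid supply through a set of lysosomal proteins. Of the 11 tested genes of that set, 9 had a late log2 difference above 0, with a median of 0.24 beside -0.07 for all genes tested. With edgeR, 0 passed at an adjusted p under 0.05, where 11.4% of all genes did, and 3 were higher at an unadjusted p under 0.05, where 12.1% of all genes were. Rragd, a GTPase that recruits mTORC1 to the lysosome, was at 13.5 CPM with DMSO, 12.1 and 14.3 CPM at 0.5 h of rosiglitazone, 27.5 and 25.7 CPM at 24 h and 21.7 and 36.9 CPM at 48 h. Its late libraries did not overlap those of 0.5 h (log2 1.07, SE 0.29, adjusted p 0.056). Its relative Rragc was at 188 CPM, then 133 and 158, 210.4 and 231, and 210.3 and 244 CPM (log2 0.50, SE 0.19, adjusted p 0.14). The sestrins Sesn1 and Sesn3 overlapped between times, as did the member Sesn2, with log2 differences of -0.46 (SE 0.41) and -0.03 (SE 0.36).

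Among enzymes of amino acid use, Aldh1l1 and Bcat1 had the smallest p. Bcat1, which removes the amino group from branched-chain amino acids in the cytosol, was at 277 CPM with DMSO, 246 and 253 CPM at 0.5 h, 311 and 467 CPM at 24 h and 536 and 408 CPM at 48 h. The late libraries were above the earlier ones without overlap (log2 0.73, SE 0.24, adjusted p 0.090). Aldh1l1, the cytosolic relative of Aldh1l2, had a log2 difference of 1.20 (SE 0.38, adjusted p 0.083), where Aldh1l2 fell.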
